A study of Mus musculus with 51 samples.

Results

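The gastric epithelium gene set held 32 genes of the surface pits, glands, chief cells and acid-secreting unit of the stomach, with 5 secretory genes that other organs share and 2 transcription factors. Members were taken by gene name from a count table of 52636 mouse genes, and all 32 were found. The table covers 14 groups with 51 RNA-seq libraries in all, made from total RNA of sorted epithelial cells, and they compare oesophageal cells carrying an active Smoothened with normal oesophagus and with columnar tissues. SmoM2 is an activated form of Smoothened, the transducer of Hedgehog signalling, and the strain name ties it to Krt5, a keratin of basal squamous cells.

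Wild-type oesophagus came from CD1 mice and was sorted as EpCAM-low (6 libraries). SmoM2 oesophagus came from Krt5-SmoM2 CD1 mice and was sorted as EpCAM-high (6 libraries). The Sox9-deleted group was Krt5-SmoM2-Sox9fl/fl, EpCAM-high (4 libraries, strain not given in the labels). Krt5-SmoM2-Krt8YFP mice of mixed background gave EpCAM-high cells without YFP (3 libraries) and with YFP (3 libraries), YFP being a fluorescent reporter named for the simple keratin Krt8. Krt5-SmoM2 oesophagus at 3 weeks and at 7 weeks was sorted as EpCAM-high and EpCAM-low (4 libraries in each of these 4 groups). The labels used here give neither the strain of these 4 groups nor the start from which weeks were counted. Krt8YFP mice without SmoM2 gave the other 5 groups. These were E13.5 embryonic oesophagus, sorted on EpCAM and YFP (2 libraries, mixed background), squamous junction cells, EpCAM-high and YFP-negative (3 libraries, strain not given), columnar junction cells, EpCAM-high with YFP (4 libraries, mixed background), and stomach and gut cells with YFP (2 libraries each, mixed background). Nothing in the labels says that the libraries of a group came from separate animals, so p-values measure the spread between these libraries, which may be technical.

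Totals ran from 1606571 to 12262365 counts per library, and the level used throughout is CPM, the count scaled to a library total of 1e6. The labelled tissues bore their own markers. A list of 10 squamous genes summed to a mean of 23660 CPM in wild-type oesophagus, 73.9 CPM in the columnar junction and 24.2 CPM in stomach. A list of 14 intestinal genes summed to 14130 CPM in gut and 97.7 CPM in stomach, where Cdx1 and Cdx2 had no count. Muc5ac, the mucin of pit cells, stood at 18350 CPM in stomach, against 1566 CPM in the columnar junction. Wild-type libraries 3 and 5, and 4 and 6, lay close to each other. A chi-square statistic of their gene counts, divided by its degrees of freedom, was 1.92 and 2.47 for these pairs, where other wild-type pairs gave 11.0 to 35.6. Within each of these 2 pairs the raw library names differed only in the number that opens them. The labels do not say whether each pair was made from the same cells. If it was, the spread among the 6 wild-type libraries is understated. The libraries of a pair differed by more than sampling noise and were kept as separate libraries. Reads of stomach genes in squamous libraries followed a number in the raw library names, as described after the SmoM2 comparisons.

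The gastric lining is a single layer folded into pits and glands. Pit cells at the surface secrete mucus, gastrokines and trefoil peptides, neck cells below them secrete a second mucus, chief cells at the gland base release digestive proenzymes, and parietal cells secrete acid when gastrin and histamine reach them. The squamous oesophagus has none of these cells, and the 2 linings meet at the junction.

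Promoter sequences are shown for 5 members on which the comparison of stomach with the columnar junction turns, the first pair higher in stomach, the last pair higher in the junction, and Pgc the member at the highest level per length in the junction. The 250 bases before each gene's RefSeq start were taken on GRCm38.p6, and 25 of the 32 members had a RefSeq entry. Gene positions given below are from another annotation, GENCODE M21. By its spans, the windows of Gkn1, Gkn2 and Chia1 reach into the gene. Chia1 starts there at 106113229, so the word marked in its window lies inside that span. Capitals mark AGATAA or TGATAA on either strand, a pair of words that GATA factors can bind. The windows, 5′ to 3′ on the gene's strand, were chr6:87350916-87351165 (minus strand) for Gkn1, chr6:87373115-87373364 (plus strand) for Gkn2, chr17:47726592-47726841 (plus strand) for Pgc, chr3:106113132-106113381 (plus strand) for Chia1 and chr2:154190568-154190817 (plus strand) for the first of the 2 Bpifb1 entries.
Gkn1: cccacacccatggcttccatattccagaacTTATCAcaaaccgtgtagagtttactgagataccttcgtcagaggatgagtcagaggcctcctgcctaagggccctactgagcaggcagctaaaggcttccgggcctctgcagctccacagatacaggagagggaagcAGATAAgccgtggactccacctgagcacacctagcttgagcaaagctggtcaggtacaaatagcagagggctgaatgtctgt
Gkn2: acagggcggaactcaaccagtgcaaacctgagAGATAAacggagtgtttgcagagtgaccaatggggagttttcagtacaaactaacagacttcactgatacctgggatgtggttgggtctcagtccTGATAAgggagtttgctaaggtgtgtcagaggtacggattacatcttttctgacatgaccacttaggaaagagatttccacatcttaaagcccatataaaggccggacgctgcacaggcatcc
Pgc: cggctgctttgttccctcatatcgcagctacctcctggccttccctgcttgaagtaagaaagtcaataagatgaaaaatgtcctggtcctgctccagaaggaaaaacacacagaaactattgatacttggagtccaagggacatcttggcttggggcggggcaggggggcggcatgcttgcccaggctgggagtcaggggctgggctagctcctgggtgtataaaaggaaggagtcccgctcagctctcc
Chia1: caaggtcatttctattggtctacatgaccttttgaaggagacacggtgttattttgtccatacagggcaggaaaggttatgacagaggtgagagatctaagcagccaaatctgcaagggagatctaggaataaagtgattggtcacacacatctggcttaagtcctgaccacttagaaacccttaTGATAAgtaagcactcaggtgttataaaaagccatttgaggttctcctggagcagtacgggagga
Bpifb1: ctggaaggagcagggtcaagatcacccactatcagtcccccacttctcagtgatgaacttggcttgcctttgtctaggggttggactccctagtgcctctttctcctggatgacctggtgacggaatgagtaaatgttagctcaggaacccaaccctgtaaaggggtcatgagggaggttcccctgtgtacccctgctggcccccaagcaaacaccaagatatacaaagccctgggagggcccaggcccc

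Gkn1 held 2 matches, whose first bases lay 220 and 82 bases before the RefSeq start, and Gkn2 also held 2, at 218 and 123 bases. Chia1 held 1, at 65 bases, and neither Pgc nor Bpifb1 held one. Among all 32851 RefSeq promoter windows of this length 16.6% held such a word, and 5 member genes did (Chia1, Gkn1, Gkn2, Gkn3 and Pik3c2g). TATAAA was held by 12.4% of all windows and by 5 member genes (Anxa10, Chia1, Gkn2, Pgc and Pik3c2g). The forkhead words TGTTTAC and TGTTTGC, searched on both strands, were held by 7.29% of all windows and by 6 member genes (Bpifb1, Cckbr, Gkn2, Gkn3, Lipf and Tspan8). These matches describe letters in the windows only, and no binding was measured. The 3 gastrokine genes are neighbours on chromosome 6 of GRCm38, with Gkn1 at 87345650 to 87350942 on the minus strand, Gkn2 at 87373357 to 87379497 on the plus strand and Gkn3 at 87383256 to 87388935 on the minus strand. Tff1 (31161395 to 31165277) and Tff2 (31141049 to 31144282) lie side by side on the minus strand of chromosome 17.

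The members were columnar genes in these libraries. A group mean of at least 5 CPM was reached by 27 of the 32 members in stomach, 27 in the columnar junction and 18 in gut. In gut, Gkn1, Gkn2, Tff1, Tff2, Dpcr1 and Pgc reached that mean only through gut 2, with 1039 counts together against 18 in gut 1. Bhlha15 did so too. The same mean was reached by 2 members in YFP-positive SmoM2 cells (Pigr and Tmprss2), 2 in embryonic oesophagus (Tspan8 and Tmprss2), and by Tmprss2 alone in each of the other 9 groups. Summed over the 32 members, the level was 42970 and 45870 CPM in the 2 stomach libraries and 24920 to 35950 CPM in the 4 columnar junction libraries. Gut libraries summed to 4822 and 7053 CPM. Wild-type oesophagus summed to 16.7 ± 3.12 CPM (SD, n = 6), SmoM2 oesophagus to 23.1 ± 2.61 CPM (n = 6) and squamous junction to 31.6 ± 0.842 CPM (n = 3). The stomach and columnar junction sums did not overlap each other or those of any other group. In bulk libraries, fewer cells of a type and less RNA per cell cannot be told apart.

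**Figure D1:**
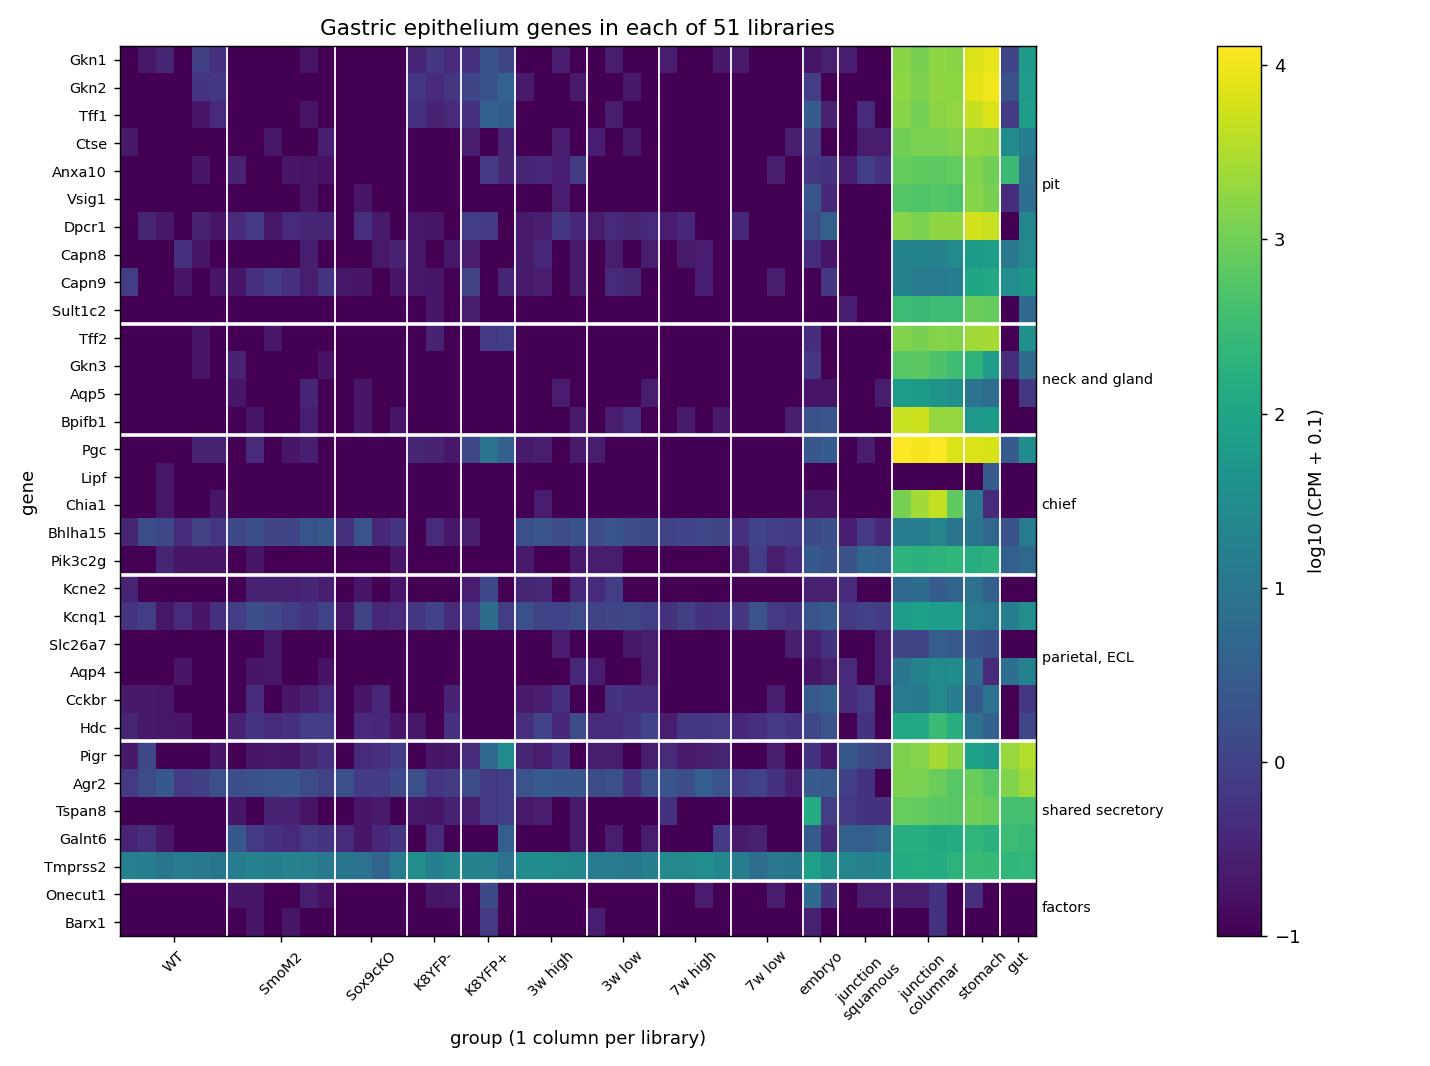
Level of the 32 members (vertical, ordered by role) in the 51 libraries (horizontal, ordered by group), as the base-10 logarithm of CPM plus 0.1. Colour is filled across the 4 columnar junction and 2 stomach libraries, is partial in the 2 gut libraries, and in the squamous libraries is seen mainly for Tmprss2.

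Per length of transcript, the stomach was led by secreted pit proteins. Gkn2 stood first at 11330 ± 1829 RPKM (CPM per kilobase of exon; SD, n = 2), followed by Tff1 at 8122 ± 2309 and Gkn1 at 5999 ± 842 RPKM. The range of Tff1 over the 2 libraries overlapped that of Gkn1, with Tff1 above Gkn1 within each library, and lay under that of Gkn2. Pgc and Tff2 followed at 4609 ± 200 and 4331 ± 198 RPKM. In the columnar junction Pgc, the proenzyme of a pepsin, stood first at 7816 ± 2084 RPKM (n = 4). Tff2, Tff1 and Gkn2 came next at 2285 ± 229, 2208 ± 481 and 2107 ± 314 RPKM, and the ranges of these 3 over the libraries overlapped. In gut the first 2 places were taken by Agr2, a disulphide isomerase of mucus-making cells, at 1458 ± 529 RPKM (n = 2), and Pigr, the receptor that carries antibodies across epithelia, at 670 ± 213 RPKM.

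The roles took unlike shares of the summed member CPM in the 3 columnar tissues. The 10 pit genes made 72.0% and 75.8% of member CPM in the 2 stomach libraries, and 26.9%, 23.3%, 27.4% and 40.7% in the 4 columnar junction libraries. The 5 chief genes made 41.7%, 42.6%, 48.2% and 30.8% in the junction and 15.74% and 13.96% in stomach. The 4 neck and gland genes made 11.0% to 21.7% in the junction and 5.97% to 6.32% in stomach. In gut the 5 shared secretory genes made 91.6% and 93.3%. Pit, chief and neck shares did not overlap between the 2 gastric tissues.

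**Figure D2:**
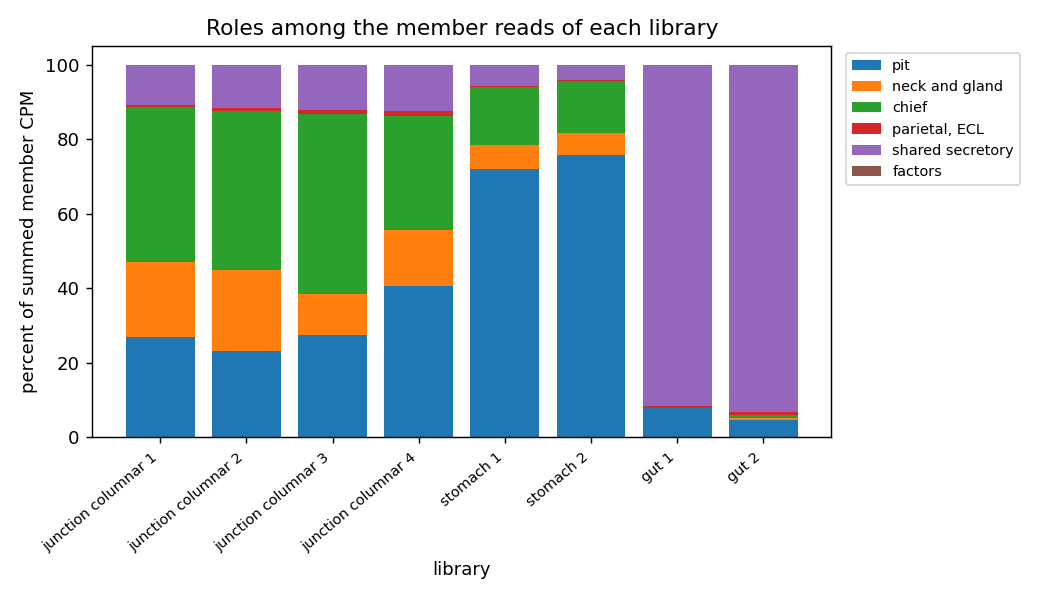
Stacked bars give the percent of summed member CPM (vertical axis) that each role took in each library of the columnar junction (4), stomach (2) and gut (2). Pit genes fill over 70% of both stomach bars, chief genes are the largest or second largest block in the junction bars, and shared secretory genes fill over 90% of both gut bars.

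Stomach and columnar junction were compared by edgeR's quasi-likelihood test in a fit of all 51 libraries, with Benjamini-Hochberg adjusted p under 0.05 called. The comparison shows where 2 gastric columnar tissues differ. Of 29 members that passed the filter on low counts, 11 were higher in stomach and 9 lower, beside 31.9% of all 22370 genes tested (13.4% higher and 18.5% lower). Lipf, Onecut1 and Barx1 did not pass. The median log2 difference, stomach minus junction, was 0.55 over the 29 members and -0.07 over all genes tested. Pit genes made up 9 of the 11 that were higher, with Tff2 and Tmprss2, and the 9 lower ones were 3 neck and gland genes, 1 chief gene, 4 parietal or enterochromaffin-like genes and Pigr. The sort differed (YFP in stomach, EpCAM-high with YFP in the junction), as did the number in the raw library names, and neither can be told apart from the tissue.

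Of the 10 pit genes, 9 were higher in stomach. Gkn1, a gastrokine that pit cells secrete into the surface mucus, stood at 1590, 1149, 1721 and 1567 CPM in the junction and at 6755 and 8244 CPM in stomach. Gkn2, its partner, stood at 1765, 1290, 1807 and 1780 CPM in the junction and at 7907 and 9946 CPM in stomach. Both stomach libraries lay above all 4 junction libraries, with log2 differences of 2.55 ± 0.35 (SE; adjusted p = 1.98e-07) for Gkn1 and 2.66 ± 0.42 (adjusted p = 1.37e-05) for Gkn2. Tff1, the trefoil peptide packed with pit mucin, stood at 1527, 1112, 1645 and 1926 CPM in the junction and at 4562 and 6858 CPM in stomach. Its groups did not overlap (log2 2.12 ± 0.45, adjusted p = 0.000412). By DESeq2 these 3 genes missed the threshold, at adjusted p of 0.0645 for Gkn1, 0.259 for Gkn2 and 0.371 for Tff1, on the same libraries.

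Dpcr1, a mucin-like membrane protein, stood at 1542, 1230, 1836 and 1825 CPM in the junction and at 5732 and 4782 CPM in stomach (log2 1.93 ± 0.31, adjusted p = 4.12e-06). Capn8 and Capn9 encode the subunits of a calcium-dependent protease of gastric mucous cells. Capn9 stood at 19.99, 12.3, 12.4 and 14.1 CPM in the junction and at 102.7 and 120.9 CPM in stomach, the largest pit difference at log2 3.15 ± 0.35 (adjusted p = 1.91e-09). Capn8 stood at 20.5, 19.7, 18.7 and 27.5 CPM in the junction and at 59.9 and 70.5 CPM in stomach (log2 1.82 ± 0.35). Neither calpain gene overlapped between the groups. Vsig1, an adhesion protein of gastric epithelium, stood at 495 to 580 CPM in the junction and at 1504 and 1136 CPM in stomach (log2 1.52 ± 0.26, adjusted p = 6.76e-05). Sult1c2, a sulphotransferase, stood at 277 to 336 CPM in the junction and at 902 and 798 CPM in stomach (log2 1.64 ± 0.25). Ctse, an intracellular aspartic protease, showed the smallest called pit difference, from 1040, 1215, 1183 and 1405 CPM to 2018 and 1811 CPM (log2 0.88 ± 0.22, adjusted p = 0.00202). Anxa10, a calcium-binding annexin, stood at 802, 744, 710 and 755 CPM in the junction and at 1416 and 991 CPM in stomach, groups that did not overlap, but the difference was not called (log2 0.89 ± 0.46, adjusted p = 0.142). An edgeR fit of the 2 groups alone did call it (log2 0.90, adjusted p = 0.00131).

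The neck and gland genes split. Tff2, the trefoil peptide of neck mucus, stood at 1387, 1140, 1442 and 1368 CPM in the junction and at 2447 and 2611 CPM in stomach (log2 1.15 ± 0.38, adjusted p = 0.0214). That call was lost without stomach 1 (adjusted p = 0.0702), without stomach 2 (0.125), without columnar junction 2 (0.0501) and by DESeq2 (0.905). Gkn3, a gastrokine of mouse neck cells, stood at 596, 669, 490 and 336 CPM in the junction and at 207 and 63.3 CPM in stomach. The groups did not overlap, and stomach was lower by log2 -1.75 ± 0.39 (adjusted p = 0.0013), a call that was lost without stomach 2 (log2 -1.17, adjusted p = 0.0566) and by DESeq2 (0.849). Gkn3 thus differed in direction from its 2 neighbours Gkn1 and Gkn2, which were higher in stomach.

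Aqp5, a water channel of gland cells, stood at 63.8, 60.6, 44.1 and 33.3 CPM in the junction and at 8.66 and 6.58 CPM in stomach (log2 -2.50 ± 0.43, adjusted p = 3.45e-05). Bpifb1, a secreted protein of the bactericidal/permeability-increasing family, stood at 4828, 5170, 1992 and 1963 CPM in the junction and at 53.0 and 59.5 CPM in stomach. Junction libraries 1 and 2 were well above 3 and 4, and all 4 were far above stomach (log2 -5.74 ± 0.39, adjusted p = 3.68e-13). The ratio of group means was 62.0, with a 95% interval from counting error alone of 61.4 to 72.3 on the pooled counts.

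Among chief genes only Chia1 was called. Pgc stood at 12880, 11080, 12750 and 6689 CPM in the junction and at 6594 and 6201 CPM in stomach. Both stomach libraries lay just under the lowest junction library, and the difference was not called (log2 -0.55 ± 0.35, adjusted p = 0.247). Chia1, an acidic chitinase of chief cells, stood at 1152, 2540, 4348 and 743 CPM in the junction and at 11.0 and 0.313 CPM in stomach, where it rested on 84 and 1 counts. It varied widely within each group, and the groups did not overlap (log2 -8.14 ± 0.79, adjusted p = 8.22e-08, and 0.3 by DESeq2). Bhlha15, the factor that sets up the secretory apparatus of zymogen cells, stood at 14.8, 14.97, 21.2 and 9.04 CPM in the junction and at 9.31 and 4.70 CPM in stomach, with overlap (log2 -0.84, adjusted p = 0.179). Pik3c2g, a class II phosphoinositide kinase, stood at 185 to 229 CPM in the junction and at 150 and 196 CPM in stomach, also with overlap (log2 -0.05, adjusted p = 0.919). Lipf, the gastric lipase, had no count in the junction and 0 and 9 counts in stomach.

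Of the 6 parietal and enterochromaffin-like genes, 4 were lower in stomach and none was higher. Hdc, which makes histamine, stood at 116.5, 119.5, 297.2 and 161.9 CPM in the junction and at 8.13 and 3.76 CPM in stomach (log2 -4.57 ± 0.45, adjusted p = 8.84e-11). Kcnq1, a potassium channel that parietal cells need for acid secretion, stood at 65.7, 81.0, 70.2 and 70.7 CPM in the junction and at 13.1 and 10.0 CPM in stomach (log2 -2.40 ± 0.40, adjusted p = 5.32e-06). Neither gene overlapped between the groups. Kcne2, the accessory subunit of that channel, stood at 4.77, 6.30, 3.03 and 4.16 CPM in the junction and at 7.87 and 3.45 CPM in stomach, with overlap and no call (adjusted p = 0.508). Aqp4, a basolateral water channel, stood at 9.07, 19.2, 26.6 and 30.5 CPM in the junction and at 5.90 and 0.313 CPM in stomach (45 and 1 counts). Its call (log2 -2.38 ± 0.58, adjusted p = 0.00173) was lost without stomach 2 (0.0535). Cckbr, the gastrin receptor, stood at 13.2, 11.7, 25.2 and 14.8 CPM in the junction and at 2.75 and 7.83 CPM in stomach (log2 -1.46 ± 0.56, adjusted p = 0.043), without overlap. That call was lost without columnar junction 3 (0.133), columnar junction 4 (0.0522) or stomach 1 (0.517), and by DESeq2 (0.128).

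Enteroendocrine markers moved with these genes, as did 1 leukocyte marker. A list of 6 enteroendocrine genes summed to 2186 to 4656 CPM in the junction and to 21.6 and 291.8 CPM in stomach, with Chga at a mean of 1678 and 80.0 CPM. A list of 8 leukocyte genes summed to 82.8 to 118.3 CPM in the junction and to 4.85 and 20.7 CPM in stomach, with Ptprc at 87.2 and 0.853 CPM. Ptprc made most of the junction mean of 100.2 CPM. Of 5 leukocyte genes tested, it alone was called lower in stomach, and the median log2 difference of the list was -0.22. The part of other cells in the differences of Hdc, Cckbr, Pigr and the other members was not tested.

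Among shared secretory genes Pigr was lower in stomach. It stood at 1287, 1468, 2606 and 1573 CPM in the junction and at 91.9 and 55.4 CPM in stomach, without overlap (log2 -4.33 ± 0.53, adjusted p = 1.21e-08). Tmprss2, a membrane serine protease, was higher in stomach, at 294.0 and 263.1 CPM against 141.0, 143.3, 140.5 and 205.5 CPM (log2 1.05 ± 0.26, adjusted p = 0.00163). Agr2 (602 to 1237 CPM in the junction, 608 and 893 CPM in stomach), the tetraspanin Tspan8 (600 to 841 and 842 to 997 CPM) and Galnt6, an enzyme that starts mucin-type glycans (130 to 156 and 174 to 216 CPM), were not called. An edgeR fit of the 2 groups alone called Tspan8 (log2 0.61, adjusted p = 0.018) and Galnt6 (log2 0.67, adjusted p = 0.00221) higher in stomach. The 2 transcription factors were at or near 0, with at most 2 counts of Onecut1 per junction library and 3 and 0 in stomach, and with Barx1, a factor of stomach mesenchyme, counted 2 times in 1 junction library and not in stomach.

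**Figure D3:**
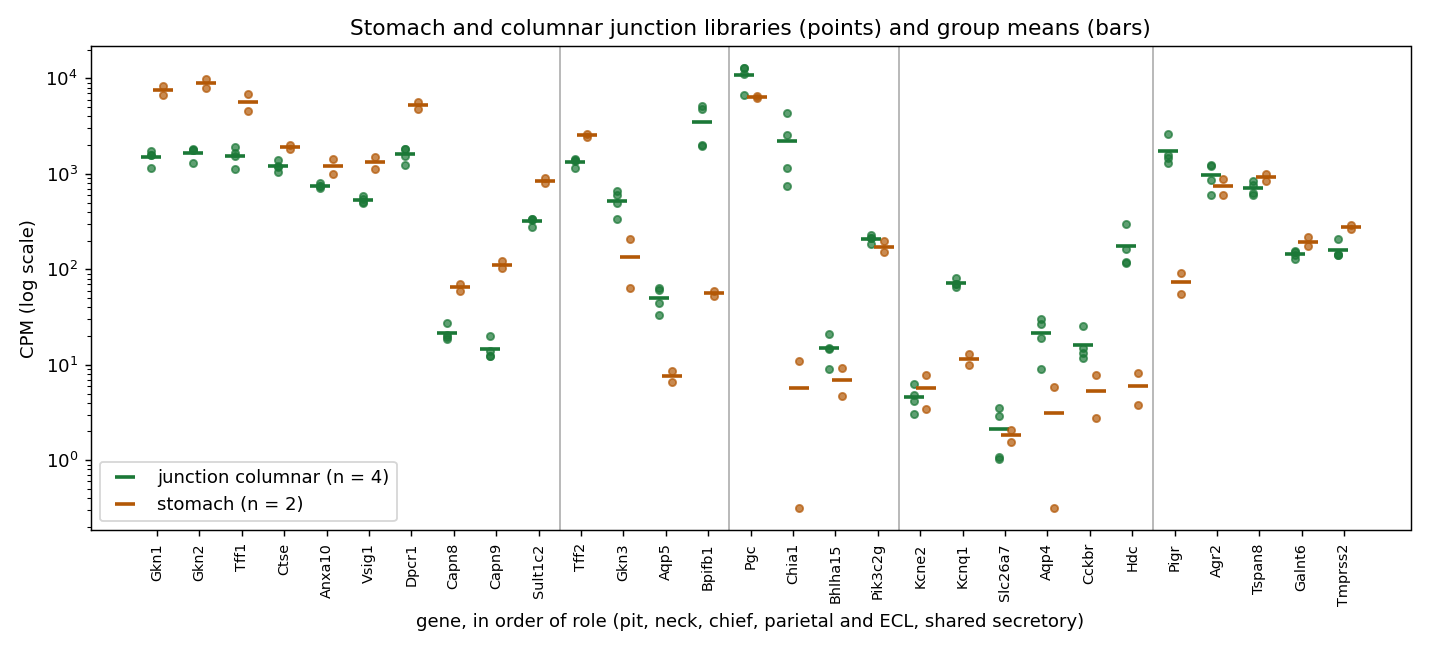
CPM on a logarithmic axis for the members in columnar junction (4 libraries) and stomach (2 libraries), in order of role, with points for libraries and bars for group means. Pit genes sit higher in stomach (Gkn1 at 6755 and 8244 CPM against 1149 to 1721), and Bpifb1, Chia1, Hdc, Kcnq1 and Pigr sit higher in the junction.

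Other genes of gastric cells went both ways in the same comparison. Of 19 tested from a list of 20, 10 were higher in stomach and 3 lower. Muc5ac was higher in stomach (log2 3.78 ± 0.49, adjusted p = 4.1e-08). Lower were Gif, the intrinsic factor that chief cells make in the mouse (64.5 against 2646 CPM, log2 -5.14), Muc6, the mucin of neck cells (2538 against 11460 CPM, log2 -1.96) and the pepsinogen Pga5 (39.3 against 269.1 CPM, log2 -2.57). Atp4a, the proton pump of parietal cells, was higher in stomach (347.6 against 127.3 CPM, log2 1.65, adjusted p = 5.69e-05), opposite in direction to Kcnq1 and Hdc.

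Against the squamous side of the junction, the columnar junction was higher for every member tested. The comparison sets the 2 linings that meet at 1 border side by side, and 28 of 28 members were called higher, beside 74.4% of all genes tested (39.2% higher, 35.2% lower). Most of these members passed the filter on low counts only through the columnar libraries, so the count is a description. Over the 28 members the median log2 difference was 10.22, and over all genes tested 0.08. Gkn2, Bpifb1 and Chia1 had no count in the 3 squamous libraries. Against a floor of 3 counts over that group, the columnar junction was at least 11020-fold higher for Gkn2, 23150-fold for Bpifb1 and 14570-fold for Chia1. Tmprss2 showed the smallest difference, with 19.1 ± 2.04 CPM (SD, n = 3) in squamous and 157.6 ± 31.99 CPM (n = 4) in columnar cells (log2 2.73 ± 0.15, adjusted p = 2.73e-08). Pigr had 1.53 ± 0.866 CPM in squamous cells, and the columnar mean was 1133 times that, with a 95% counting interval of 772 to 1634.

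Most gastric members were higher in stomach than in gut, and Pigr and Agr2 were higher in gut. Of 29 members tested, 21 were higher in stomach and 4 lower, beside 31% of all genes tested (15.4% higher, 15.6% lower). Medians of the log2 difference were 5.01 over the 29 members and 0.03 over all genes. Many members passed the filter through the columnar gastric libraries, and the count is read as a description. The 2 gut libraries differed from each other. Gkn1 stood at 1.07 and 60.02 CPM, Gkn2 at 1.78 and 63.1 CPM, Tff1 at 0.713 and 73.5 CPM and Pgc at 2.85 and 30.6 CPM in gut 1 and gut 2. Anxa10 went the other way, with 298.4 CPM in gut 1 and 9.36 CPM in gut 2. Even the higher gut library lay below both stomach libraries for these genes. Log2 differences, stomach minus gut, were 7.77 for Gkn1 (adjusted p = 1.78e-14), 8.36 for Pgc and 2.59 for Anxa10 (adjusted p = 0.000653). Anxa10 was not called in a fit of the 2 groups alone (adjusted p = 0.286).

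The 4 members lower in stomach than in gut were Pigr, Agr2, Aqp4 and Kcnq1. Pigr stood at 2091 and 3301 CPM in gut, above both stomach libraries at 91.9 and 55.4 CPM (log2 -5.41 ± 0.58, adjusted p = 2.68e-10). Agr2 stood at 1400 and 2366 CPM in gut and at 893 and 608 CPM in stomach (log2 -1.55 ± 0.31, adjusted p = 0.000104). Aqp4 stood at 7.13 and 17.3 CPM in gut and 5.90 and 0.313 CPM in stomach (log2 -2.02 ± 0.64, adjusted p = 0.0145), and Kcnq1 at 15.3 and 31.4 CPM against 13.1 and 10.0 CPM (log2 -1.22 ± 0.43, adjusted p = 0.0265). Gut lay above stomach in each library for all 4 genes. In a fit of the 2 groups alone the calls of Agr2 (adjusted p = 0.0562), Aqp4 (0.15) and Kcnq1 (0.0557) were lost, and Pigr was the only member called lower in stomach. The call of Aqp4 was also lost by DESeq2 (0.142) and without stomach 2 (0.16) or gut 2 (0.218), and that of Kcnq1 without stomach 1 (0.0909), stomach 2 (0.129) or gut 2 (0.319). The gut and columnar junction were alike in carrying more Pigr than stomach, at 2696 ± 856 (n = 2) and 1733 ± 594 CPM (n = 4). Capn9 and Capn8 were called higher in stomach by small margins (log2 1.23 and 1.65), with gut at 32.1 and 50.1 CPM for Capn9. Capn9 lost its call without any one of the 4 libraries (adjusted p from 0.0538 to 0.15), and Capn8 lost it without gut 1 (0.0803). Tspan8 (382 and 392 CPM in gut), Galnt6 (314 and 273 CPM), Tmprss2 (231 and 246 CPM) and Bhlha15 (1.78 and 14.04 CPM) were not called. No count was seen in gut for 7 members, Bpifb1, Lipf, Chia1, Kcne2, Slc26a7, Onecut1 and Barx1. Slc26a7, an anion exchanger of parietal cells, was itself low in stomach, at 2.10 and 1.57 CPM.

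SmoM2 cells held almost no gastric transcripts. In the 6 SmoM2 libraries, Gkn2, Sult1c2, Lipf and Chia1 had no count, Gkn1 and Tff1 had 1 count each and Pgc had 6. Against the same floor, stomach was at least 184500-fold higher than SmoM2 oesophagus for Gkn2. For Pgc the ratio of stomach to SmoM2 was 65700, with a 95% counting interval of 30760 to 182500. Tmprss2, the only member above 5 CPM in SmoM2, stood at 15.6 ± 2.51 CPM (n = 6), which is 5.6% of its stomach level.

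SmoM2 and wild-type oesophagus were compared in a fit of those 2 groups. Wild type was sorted as EpCAM-low and SmoM2 as EpCAM-high, so gate and SmoM2 cannot be told apart here. Only Agr2, Bhlha15 and Tmprss2 passed the filter on low counts, and edgeR called 0 of the 3, beside 49.5% of all 16224 genes tested (26.2% higher, 23.3% lower). Unadjusted p was under 0.05 for 1 of them, and DESeq2, which tested more members, called 4, beside 10243 genes in all. The median log2 difference was 0.27 over the 3 members and 0.01 over all genes. Bhlha15 stood at 0.244 to 1.49 CPM in wild type and 1.00 to 2.45 CPM in SmoM2 (log2 0.89 ± 0.39, adjusted p = 0.0724), with overlap. It was called without wild-type library 2 (log2 1.16, adjusted p = 0.0258). Tmprss2 ran from 9.66 through a median of 11.7 to 16.9 CPM in wild type, and from 11.4 through 16.3 to 17.99 CPM in SmoM2, with broad overlap (log2 0.19 ± 0.17, adjusted p = 0.37). Agr2 overlapped as well, at 1.27 ± 0.734 and 1.69 ± 0.521 CPM (adjusted p = 0.548).

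With no filter on low counts, 5 of 31 members tested were called, beside 10456 of 35725 genes. Galnt6 (6 counts over wild type, 49 over SmoM2; log2 2.53, adjusted p = 0.00958), Hdc (5 and 32 counts; log2 2.10, adjusted p = 0.0111) and Kcnq1 (19 and 58 counts; log2 1.17, adjusted p = 0.0469) were higher in SmoM2. Gkn1 (15 and 1 counts; log2 -3.47) and Gkn2 (10 and 0 counts; log2 -4.02) were lower. Of these wild-type counts, libraries 5 and 6 gave 12 of the 15 for Gkn1 and all 10 for Gkn2. Without wild-type libraries 5 and 6, and still with no filter, 0 of 30 members tested were called, beside 8174 of 35360 genes. None of these 5 genes passed 2.42 CPM in any wild-type or SmoM2 library. In the fit with the filter, 5 of 7 other gastric genes tested were higher in SmoM2 (Gif, Muc5ac, Muc6, Psca and Foxq1), beside 26.2% of all genes. The summed level of that list, 104 to 151 CPM, was mainly Foxq1, at a mean of 90.3 CPM.

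YFP-positive SmoM2 cells, sorted on a reporter named for a columnar keratin, held transcripts of the members far below the level of columnar tissue. Against stomach, 29 of 29 members were lower in YFP-positive cells, beside 50.4% of all genes tested (25.3% lower), with a median log2 difference of -9.25 against 0 over all genes. Against the columnar junction, 29 of 29 were lower as well, beside 60.8% (33.4% lower), with a median of -10.29 against -0.15. Most members passed the filter through the columnar libraries only. Gkn1 in YFP-positive cells stood at 0.015% of the stomach mean and 0.0744% of the junction mean, and Pgc at 0.0707% and 0.0417%. Tmprss2 was at 9.37% of the junction level. Pigr was at 0.617% of the junction level, and its difference from stomach (log2 -2.63 ± 0.52, adjusted p = 3.88e-05) was lost by DESeq2 (0.055) and in a fit of the 2 groups alone (0.0643). Of 19 other gastric genes tested, 18 were lower than in stomach and 0 higher. Against the columnar junction 18 were lower and 1, Slc26a9, was higher. All 10 squamous genes listed were higher in YFP-positive SmoM2 cells than in stomach and than in the columnar junction.

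Between YFP-positive and YFP-negative SmoM2 cells, only Tmprss2 passed the filter, and edgeR called 0 of 1 members, beside 19.9% of all genes tested (13.1% higher, 6.83% lower). It stood at 19.1, 16.8 and 8.39 CPM with YFP and at 33.2, 15.8 and 23.2 CPM without (log2 -0.34 ± 0.39, adjusted p = 0.567, and unadjusted p under 0.05 for 0 members). Its log2 difference, the median of this list of 1, stands beside a median of -0.03 over all genes. Below the filter, a few members had more reads with YFP. Pigr had 2, 9 and 100 counts with YFP and 0, 1 and 1 without, so that library 3 held most of them. Pgc had 8, 14 and 14 counts with YFP (1.19, 8.71 and 3.67 CPM) and 2, 2 and 1 without, with no overlap. With no filter, edgeR called 4 of 23 members tested, beside 4011 of 31012 genes. These were Pigr (log2 7.10, adjusted p = 1.26e-05), Pgc (log2 4.59, adjusted p = 0.00022), Tff1 (log2 2.90, 0.0186) and Gkn2 (log2 2.43, 0.0227). DESeq2 called 4 members too, beside 3890 genes in all. The filtered test also called 4 members when YFP-positive library 1 was left out, 2 without YFP-negative library 1, and 1 without YFP-positive library 2, YFP-positive library 3 or YFP-negative library 2. Of 4 other gastric genes tested, 2 (Slc26a9 and Foxq1) were called higher with YFP, beside 13.1% of all genes. That list of 20 summed to 114.5 to 214.3 CPM with YFP and 38.4 to 66.0 CPM without, with no overlap.

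YFP-positive libraries held 1606571 to 6706081 counts, among them the shallowest library of the series. Of 7 fibroblast genes tested, 5 were called higher in these libraries, beside 13.1% of all genes, and of 3 muscle genes tested 0 were called. A list of 8 fibroblast genes summed to 68.9 to 598.2 CPM with YFP and 16.7 to 78.0 CPM without. A list of 5 muscle genes summed to 6.55 to 242.1 CPM with YFP and 4.46 to 17.3 CPM without, and no gene of either list was at 0. The sums of both lists overlapped between the sorts. Sums of 2 further lists did not. A list of 5 endothelial genes summed to 26.8 to 120.8 CPM with YFP and 11.45 to 19.9 CPM without. The 8 leukocyte genes summed to 11.0 to 18.6 CPM with YFP and 7.04 to 9.63 CPM without. Called higher were 1 of 2 endothelial genes tested (Pecam1) and the 1 leukocyte gene tested (Cd68). The part of these cells, or of depth, in the reads of Pigr and Pgc was not tested.

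Deletion of Sox9 left the members low. Of the 3 members tested against SmoM2, edgeR called 0, beside 2.66% of all genes (1.18% higher, 1.48% lower), with 1 at unadjusted p under 0.05. Tmprss2 stood at 9.59, 8.52, 4.08 and 12.2 CPM in Sox9-deleted cells and at 11.4 to 17.99 CPM in SmoM2 (log2 -0.82 ± 0.23, adjusted p = 0.0739), with 1 Sox9-deleted library above the lowest SmoM2 library. DESeq2 (log2 -0.80, adjusted p = 0.0156) and a fit of all 14 groups (log2 -0.79, adjusted p = 0.0297) called Tmprss2. Bhlha15 was called only without Sox9-deleted library 2 (log2 -1.88, adjusted p = 0.0187). The median log2 difference was -0.82 over the 3 members and 0.00 over all genes. No count was found in the Sox9-deleted libraries for 15 members.

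At 3 and 7 weeks the EpCAM-high gate held more Tmprss2 than the EpCAM-low gate. Tmprss2 stood at 29.8, 29.9, 28.3 and 24.1 CPM in EpCAM-high and 12.9, 13.4, 11.6 and 15.01 CPM in EpCAM-low cells at 3 weeks. At 7 weeks it stood at 27.3, 25.4, 31.9 and 23.8 CPM against 13.9, 6.72, 10.3 and 9.62 CPM. All 4 high libraries lay above all 4 low libraries at both times. In a fit of these 4 groups with wild type, log2 differences were 1.03 ± 0.19 (adjusted p = 0.000349) at 3 weeks and 1.35 ± 0.19 (adjusted p = 6.53e-06) at 7 weeks. Of 3 members tested, 1 was called at 3 weeks, beside 15.2% of all genes (7.37% higher, 7.84% lower), and 2 at 7 weeks, beside 32.3% (15.5% higher). Medians were 0.80 at 3 weeks and 1.35 at 7 weeks, against -0.01 and -0.02 over all genes.

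The second gene at 7 weeks was Agr2. It stood at 2.12, 1.52, 3.23 and 1.92 CPM in EpCAM-high and at 0.670, 0.988, 0.459 and 0.175 CPM in EpCAM-low cells, without overlap (log2 1.88 ± 0.50, adjusted p = 0.00515). At 3 weeks it stood at 1.96, 2.65, 2.38 and 2.37 CPM against 1.37, 1.68, 0.476 and 1.78 CPM, also without overlap but not called (log2 0.80, adjusted p = 0.22). In a fit of the 2 groups with the replicate number as a block, which the libraries at 3 weeks bore out as a pairing, 2 members were called, Tmprss2 and Agr2 (log2 0.81, adjusted p = 0.0375), and the same fit with no block called 1, Tmprss2. The difference between gates was not called as changed between the times by the interaction test, for Tmprss2 (log2 0.32 ± 0.27, adjusted p = 0.693) or Agr2 (log2 1.08 ± 0.66, adjusted p = 0.53). These levels stand far below the stomach means of 278.6 CPM for Tmprss2 and 750.6 CPM for Agr2.

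Low reads of the strongest gastric genes followed a number that opens the raw library names, whose meaning the sources used here do not state. The counts of Gkn1, Gkn2, Tff1, Tff2, Dpcr1 and Pgc were summed in each of the adult squamous libraries. They came to 12 to 48 in the 8 libraries whose names open with 6, and to 0 to 9 in all others. Both stomach and both gut libraries also carry the number 6. In wild-type oesophagus, libraries 5 and 6 had 19 and 15 such counts, while libraries 3 and 4, which were closest to them in the rest of the counts, had 3 and 0. YFP-positive SmoM2 libraries had 26, 28 and 48 and YFP-negative ones 14, 15 and 12, all under the number 6. Scaled to library totals, these were 3.88, 17.4 and 12.6 CPM with YFP and 1.64, 1.61 and 1.32 CPM without. The part of this number in the low reads of gastric genes was not tested.

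**Figure D4:**
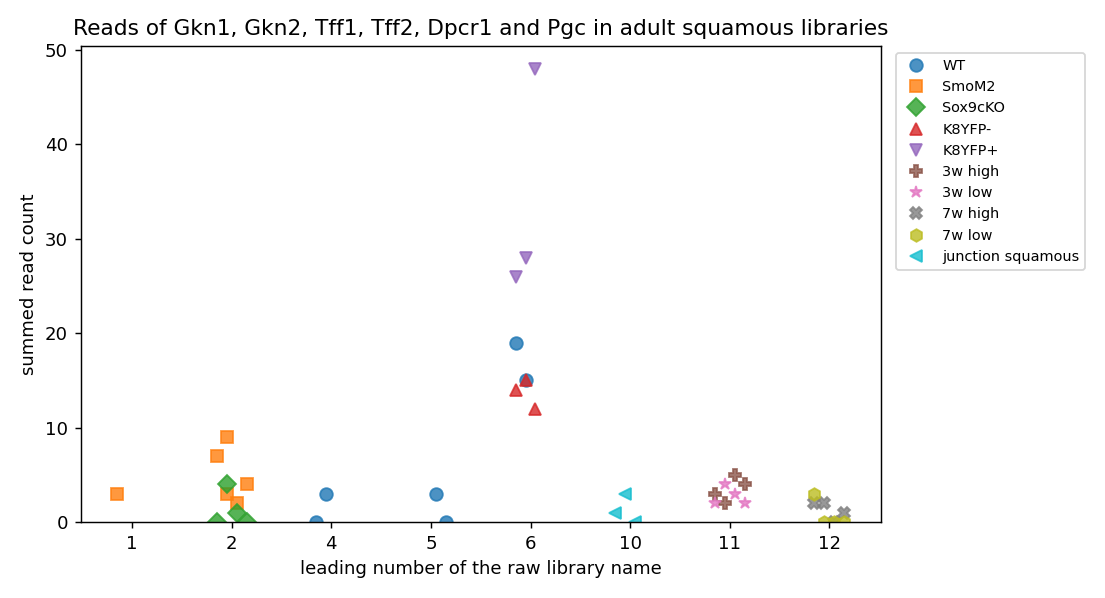
Summed read count of Gkn1, Gkn2, Tff1, Tff2, Dpcr1 and Pgc (vertical) in adult squamous libraries, by the number that opens the raw library name (horizontal), 1 point per library. The 8 libraries under the number 6 lie at 12 to 48 counts, above all others at 0 to 9.

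Squamous junction cells were compared with wild-type oesophagus in the fit of all libraries. Of 29 members tested, 4 were higher in the squamous junction and none lower, beside 30.5% of all genes (16.2% higher). Most of the 29 passed the filter on low counts through the columnar libraries and had few or no reads here, so nothing is read from their share. In a fit of the 2 groups alone, 4 members were tested and 3 called (Pik3c2g, Galnt6 and Tmprss2), beside 5713 of 16366 genes. The median log2 difference was 0.62 over the 29 members and 0 over all genes. The pit genes were not among the 4, and the 10 of them summed to 0.470, 1.23 and 0.570 CPM in the squamous junction. DESeq2 also called the pit gene Anxa10 (log2 4.00, adjusted p = 0.0041) and Tspan8 (log2 4.64, adjusted p = 0.00101) higher there. Pik3c2g stood at 1.72, 4.46 and 3.99 CPM, above all wild-type libraries, of which the highest had 0.236 CPM (log2 4.99 ± 0.44, adjusted p = 1.68e-11). Galnt6 stood at 3.60, 3.23 and 4.70 CPM, above the wild-type range of 0 to 0.373 CPM (log2 4.93 ± 0.71, adjusted p = 4.6e-07). In a fit of the 2 groups without wild-type libraries 5 and 6, both stayed called, at log2 5.06 (adjusted p = 0.000526) and 4.34 (adjusted p = 0.000325). Pigr (2.51, 1.23 and 0.855 CPM, against 0 to 1.12 in wild type; log2 2.79, adjusted p = 0.0233) lost its call without squamous junction 1 (log2 2.25, adjusted p = 0.176) and in a fit of the 2 groups alone. Tmprss2 (21.2, 17.1 and 19.1 CPM; log2 0.62 ± 0.24, adjusted p = 0.0468) lost it with no filter (0.0707), with wild-type pairs summed (0.147), without any one of wild-type libraries 3 to 6 (0.074 to 0.101) or of the 3 squamous junction libraries (0.0661 to 0.174), and in the fit of the 2 groups without wild-type libraries 5 and 6 (log2 0.52, adjusted p = 0.093). Agr2, at 0.783, 0.461 and 0 CPM in the squamous junction, just missed a call as lower (log2 -1.60 ± 0.64, adjusted p = 0.0516). It was called lower by DESeq2 (log2 -1.61, 0.0305), with wild-type pairs summed (0.0469), with no filter, and without wild-type library 1 (0.0341), 4 (0.0303) or 5 (0.0415) or squamous junction 1 (log2 -2.42, 0.0343). Gate (EpCAM-high against EpCAM-low) and tissue cannot be told apart here.

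In embryonic oesophagus, 14 of 29 members were higher than in adult wild type and none lower, beside 64% of all genes tested (36.1% higher). The median log2 difference was 2.38 over the members and 0.16 over all genes. Most of the 29 passed the filter on low counts through the columnar libraries. In a fit of the 2 groups alone 10 members were tested and 8 called, beside 12004 of 19406 genes. Only Tspan8 and Tmprss2 reached a mean of 5 CPM. Tspan8 stood at 136.0 CPM in embryonic library 1 and 0.733 CPM in library 2. Library 1 also held more Tff1 (31 and 2 counts), Vsig1 (22 and 3), Galnt6 (29 and 3) and Onecut1 (66 and 5), the last a factor of foregut-derived liver and pancreas. Cdx2, the intestinal master factor, stood at 41.9 CPM in library 1 and 0.183 CPM in library 2, and how far such cells gave these reads was not tested. Without library 1, Tff1 (log2 0.58, adjusted p = 0.86) and Galnt6 (log2 0.60, adjusted p = 0.755) were no longer called, and Ctse turned to -1.16 (adjusted p = 0.548).

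Some called members had similar counts in both embryonic libraries. Cckbr had 28 and 42 counts (log2 4.97 ± 0.73, adjusted p = 2.08e-07), Pgc 25 and 32 (2.31 and 2.93 CPM; log2 4.35 ± 0.82, adjusted p = 2.09e-05), and Bpifb1 19 and 22 (log2 6.44 ± 1.04, adjusted p = 2.55e-06). Dpcr1 had 15 and 38 counts. Tmprss2 stood at 78.9 and 34.4 CPM, unequal between the libraries but above every wild-type library (log2 1.66 ± 0.25, adjusted p = 1.92e-07). In a fit of the 2 groups without wild-type libraries 5 and 6, 8 members were called. These were Dpcr1, Bpifb1, Pgc, Pik3c2g, Kcnq1, Cckbr, Hdc and Tmprss2. In the fit of all libraries, 10 of 14 intestinal genes listed were higher in the embryo, beside 36.1% of all genes tested. Their sum was unequal between the 2 embryonic libraries, at 43.8 and 188.6 CPM. Of 19 other gastric genes tested there, 15 were higher and 1, Slc26a9, was lower. Genes of both lists can pass the filter on low counts through the columnar libraries. Markers of other cells moved too. The 8 fibroblast genes summed to 240.9 and 427.0 CPM in the embryo and 19.1 to 112.1 CPM in wild type, with 6 of 8 called higher, and the 5 muscle genes to 62.8 and 68.3 CPM against 5.60 to 13.3 CPM, with 4 of 5 called higher. The part of these cells, of gate and of age in the members' differences was not tested.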

How the data were processed

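RNA of sorted mouse epithelial cells was measured in 51 libraries, prepared with NuGen Ovation Solo and sequenced on an Illumina NovaSeq, per the labels' protocols. The authors deposited 1 table of raw read counts per gene. The submitters' processing notes name STAR 2.5.3a, HTSeq, edgeR and GRCm38 (mm10). The labels and notes do not state the strand setting of the counting, so reads of a gene and of an overlapping antisense gene cannot be told apart. All columns were matched to samples by the sample names the labels give. Levels are CPM of the library total. A total of 10741 genes had no count.

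Tests used edgeR 4.0.16 in R 4.3.3 (limma 3.58.1) with TMM factors, filterByExpr (minimum count 10, minimum total 15), the quasi-likelihood F-test and Benjamini-Hochberg adjustment over all genes tested. SmoM2 against wild type, YFP-positive against YFP-negative, Sox9-deleted against SmoM2 and columnar against squamous junction were fitted on their own 2 groups. The gates at 3 and 7 weeks were fitted with wild type, and the other comparisons on all 51 libraries. All comparisons with wild type share those 6 libraries, and both comparisons of YFP-positive SmoM2 cells with columnar tissue share theirs. The code was tested on simulated data.

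All 32 members may be named, in order of role, with every library's value given for members that reach a group mean of 5 CPM. Of genes outside the members, those of fixed marker lists are given as counts, with a few named. The members and lists were chosen with earlier results of these data known. A group with no count was set to 3 counts over the group for bounds. Bounds and 95% counting intervals cover counting error only. RPKM used exon lengths of GENCODE M21.

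Same-numbered libraries deviated together for the YFP sorts (r = 0.409, 0.291 and 0.363) and for the gates at 3 weeks (r from 0.165 to 0.295), taken as pairs, with the threshold at 0.1. At 7 weeks (lowest r = 0.0746) and elsewhere they were not. Alternatives were other size factors, no filter, DESeq2 1.42.0, other libraries in the fit, the replicate block, summed wild-type pairs and each library left out.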

Additional observations from a re-analysis of the deposited data

Results flagged for a closer look

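In groups of 4 to 10 libraries, members with a group mean of at least 5 CPM were searched for a library far from the rest, by the gap to its nearest neighbour over the range of the group. Of 34 gene and group pairs searched, 2 stood out, and chance alone gives about 1 in 20. Columnar junction 2 was low for Gkn2, at 1290 CPM, with the nearest library at 1765 CPM and a gap of 0.919 of the range. Columnar junction 4 was high for Tmprss2, at 205.5 CPM, with the nearest at 143.3 CPM and a gap of 0.957 of the range. Both genes stayed higher in stomach without any one junction library.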

How the results depend on the processing

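The number of members called kept within 1.5 times of the reported count, under every alternative run, for columnar against squamous junction (28, range 28 to 29), the gates at 7 weeks (2, range 2 to 3), stomach against gut (25, range 17 to 25), and YFP-positive SmoM2 cells against stomach (29, range 25 to 30) and against columnar junction (29, range 28 to 29). For SmoM2 against wild type, 0 became 5 with no filter and 4 with DESeq2 or a fit of all 14 groups, and 0 to 1 with 1 library left out. For the YFP sorts, 0 became 4 in each of these 3 settings and 0 to 4 with 1 library left out. For Sox9 deletion, 0 became 1 with DESeq2 or all 14 groups and 0 to 1 with 1 library left out. For the gates at 3 weeks, 1 became 2 with no filter. For stomach against columnar junction, 20 became 13 with DESeq2, 23 in a fit of the 2 groups with or without the replicate block, and 17 to 20 with 1 library left out. For squamous junction against wild type, 4 became 7 with DESeq2, 2 in a fit of the 2 groups without wild-type libraries 5 and 6 (chosen after seeing the data), and 3 to 5 with 1 library left out. For embryo against wild type, 14 became 8 in a fit of the 2 groups with or without those libraries, and 11 to 15 with 1 library left out. Ctse in the embryo reversed to -1.16 without embryonic library 1, with a range of -1.16 to 4.15 over the libraries left out. The cause was not tested.

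The replicate block was run on the 2 groups alone, with numbers present in both, so outside the YFP sorts it also changed the libraries or genes of the fit. For the YFP sorts members called stayed at 0 and genes called went from 3110 to 4785. At 3 weeks 1 member was called in the reported fit, 1 in the 2 groups with no block (added after seeing the data) and 2 with it, and 2625, 4474 and 5968 genes. Elsewhere numbers only name libraries. For squamous junction against wild type members went from 4 (3 in the 2 groups with no block) to 2 with it, and for the embryo from 14 (8) to 6. No other count of members moved by over 1.5 times. Genes called went from 6938 (2398 in the 2 groups with no block) to 2316 for stomach against gut, 11270 (7287) to 6955 and 13593 (10587) to 8925 for YFP-positive cells against stomach and junction, 6825 (5713) to 2861 for squamous junction, 14311 (12004) to 7604 for embryo, and 454 to 103 for Sox9 deletion. A fit of all 14 groups gave 6733 for the YFP sorts, 1524 for Sox9 deletion and 1378 at 3 weeks. Squamous junction without wild-type libraries 5 and 6 gave 4304 in a fit of the 2 groups. For Sox9 deletion, no filter gave 767, DESeq2 1273, and leaving out 1 library 207 to 2153. For the YFP sorts it was 1016 without YFP-negative library 3, 2045 without YFP-negative library 2 and 1749 without YFP-positive library 3, and leaving out stomach 1 gave 4165 for stomach against the columnar junction.

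Members under the filter rest on few reads, and in the squamous comparisons whether they were called turned on the filter and the tool, as the counts above show.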
